A study of Mus musculus with 2 samples.

Results

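Long transcripts with few exons were studied in the mouse left cerebral cortex by long-read RNA sequencing, in which a read can span a transcript from cap to tail. They are annotated (Known) transcripts chosen by length, exon number and reads: 6000 bases or more, 2 to 12 exons and at least 1 read in both libraries. These values are therefore no finding. There were 381 such transcripts, from 357 genes, among 24329 Known transcripts with a read and 16417 read in both libraries. Of the 518 transcripts of that length and exon number with any read, 69 were read only in replicate 1 and 68 only in replicate 2. All reads of the same 357 genes that did not match an annotated transcript were studied with them.

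There was 1 group, with no treatment: male B6CASTF1/J mice, the first-generation cross of the C57BL/6J and CAST/EiJ strains, aged 14 days, with 2 libraries labelled biological replicates 1 and 2, each from 2 µg of total RNA. The labels give both replicates the same donor identifier and name differently numbered sets of males, so each library may be a pool, and the spread between them may be partly technical. Replicate 1 held 775048 mouse reads and replicate 2 held 924222, besides 0.955% and 1.16% of reads on spike-in transcripts. Marker genes of cortical excitatory neurons summed to 3571 and 5128 CPM (reads per 1000000 mouse reads) in replicates 1 and 2. Oligodendrocyte markers summed to 3215 and 2105 CPM and 7 striatal markers to 928 and 223 CPM, with Drd2 and Adora2a at 0 in replicate 2. Astrocyte markers summed to 2751 and 3197 CPM, interneuron markers to 504.5 and 466, microglial markers to 581 and 552 and vessel markers to 613 and 660. The 6 markers of cerebellum summed to 356 and 395 CPM, with 3 and 2 of them detected and Gabra6, Cbln3 and Barhl2 at 0 in both libraries. The part of such differences in the results was not tested, and in bulk tissue fewer cells of a type and less RNA per cell cannot be told apart.

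Most messenger RNAs of brain carry their stop codon in or near the last exon, and the 3' untranslated region (3' UTR) that follows holds sites for microRNAs and RNA-binding proteins that set stability, translation and transport into axons and dendrites. The 3' end is made by cleavage and addition of a poly(A) tail, usually a short way past the hexamer AATAAA or a close variant such as ATTAAA. Many genes have several such signals, and neurons are known for using distal ones, which gives long 3' UTRs. Long-read libraries are commonly primed with oligo(dT) on the tail, which is also known to prime on internal stretches of A.

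The sequences below show the 30 transcript bases that end at the 3' end of unannotated models in the genes described later. Known models carry annotated ends and were left out. An unannotated model has a single end for all its reads. The ends given here and below are therefore those of models and not of each read. They come from the annotated transcripts of GENCODE M21 on mm10, and capitals mark AATAAA or ATTAAA. Lines of next bases show the 20 transcript bases that follow an end, with A in capitals.
Ppp2ca, end 759 bases past the stop codon, chr11:52122704-52122733 (plus strand): aggtaaagaaaAATAAAgatcaaggccact
Ppp2ca, end 1466 bases past the stop codon, chr11:52123411-52123440 (plus strand): caacagtgaagttacagtattgccctgtat
Ppp2ca, next 20 bases after that end, chr11:52123441-52123460 (plus strand): AAAAAAAAAAAAAAAAAAAA
Tspan5, end 1982 bases past the stop codon, chr3:138904397-138904426 (plus strand): gctgtcattAATAAActcggttctacctta
Dnajc5, end 3504 bases past the stop codon, chr2:181552851-181552880 (plus strand): aaagcaacaagtacAATAAAagtcagctcc
Mmp17, end 1671 bases past the stop codon, chr5:129608180-129608209 (plus strand): ccaaactcttAATAAAaattttgtacactg
Caln1, end 764 bases past the stop codon, chr5:130840145-130840174 (plus strand): ccagctttcttgcctgtgctgccattagag
Caln1, next 20 bases after that end, chr5:130840175-130840194 (plus strand): AAAAgAAAAAAgAAAAAAAA
Slc1a2, annotated end, chr2:102790755-102790784 (plus strand): atcAATAAAtgtagattgcaatttctcttt
The Ppp2ca end at 1466 bases and the Caln1 end at 764 bases had neither hexamer in the 30 bases shown, and 20 and 18 of the next 20 bases were A. The Tspan5, Dnajc5 and Mmp17 ends and the annotated end of Slc1a2 had AATAAA.

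The length of these transcripts lay in the last exon. The last exon had a median of 5861 bases, or 82.1% of the transcript (quartiles 73.5% and 89.3%). In the 454 Known transcripts of 6000 bases or more with over 12 exons it had a median of 3623 bases, or 52.3%, and in 14478 shorter spliced Known transcripts 983 bases, or 46.6%. The last exon was over 50% of the length in 362 of the 381 and was the longest exon in 366. The selection on length and few exons bears on these shares, and no test was made of them.

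Of the 381, 367 were protein coding, 5 were lincRNAs, 4 were annotated as retained introns and 3 as targets of nonsense-mediated decay. The annotated 3' UTR of the 367 coding transcripts had a median of 5376 bases, against 3452 in long transcripts with many exons and 834 in the shorter ones. Their coding part, stop codon included, had a median of 1461 bases, against 3459 and 1197. The stop codon lay in the last exon in 355, the 3' UTR was longer than the coding part in 344, and it held 5000 bases or more in 231.

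**Figure D1:**
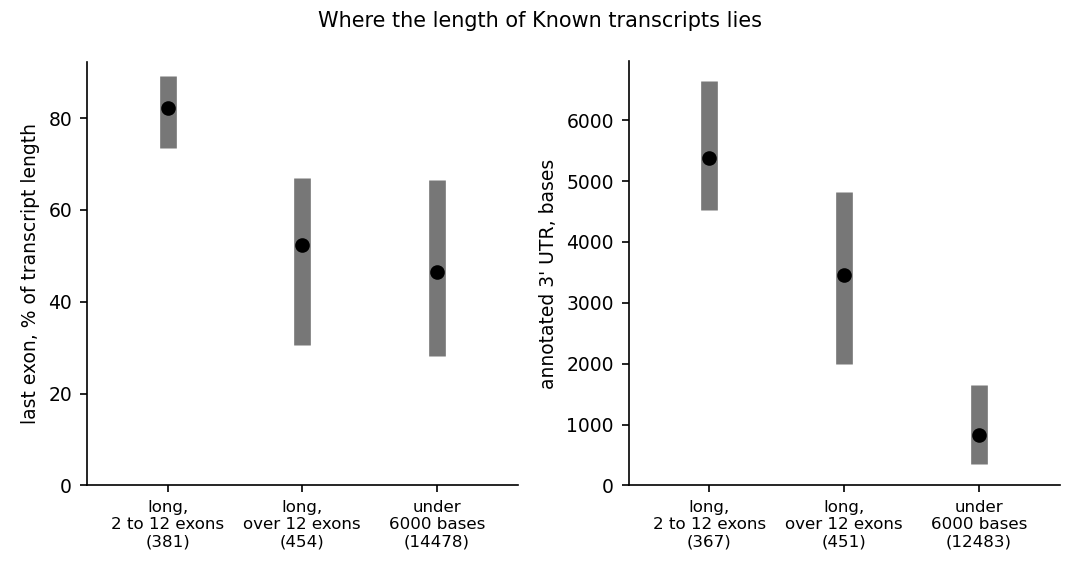
Share of the transcript length in the last exon (left, %) and length of the annotated 3' UTR (right, bases) for long Known transcripts with few exons, long ones with over 12 exons and spliced ones under 6000 bases; points are medians and bars run from the lower to the upper quartile. The long transcripts with few exons have medians of 82.1% and 5376 bases, against 52.3% and 3452, and 46.6% and 834.

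Long transcripts with few exons held 8429 of 511250 Known reads in replicate 1 (1.65%, 95% Wilson interval 1.61 to 1.68%) and 9437 of 596629 in replicate 2 (1.58%, 1.55 to 1.61%), a mean of 1.62% ± 0.0474 (SD, n = 2). They were 87.2% and 86.4% of all Known reads of their 357 genes. The reads were concentrated: the 12 transcripts with most reads held 36.1% and 35.0% of them. At the other end, 141 of the 381 had fewer than 10 reads over both libraries and 19 had 2. Intervals cover counting error only.

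Ppp2ca-201, which encodes the catalytic subunit of protein phosphatase 2A, led with 778 reads in replicate 1 and 836 in replicate 2, or 1004 and 904.5 CPM. It has 7 exons, 7102 bases and a last exon of 5877 bases on chromosome 11. On the log2 scale replicate 1 was above replicate 2 by 0.15 (95% interval 0.01 to 0.29), which did not pass Fisher's exact test (adjusted p = 0.428).
Small GTPases of membrane traffic followed. Rab11b-201, of the recycling endosome, had 293 and 355 reads in replicates 1 and 2 on 6109 bases in 5 exons. Rab18-205 had 280 and 287 reads on 6515 bases in 7 exons.
Glo1-206, the glyoxalase that clears methylglyoxal, had 245 and 291 reads, and G3bp1-201, an RNA-binding protein of stress granules, had 233 and 289. Glo1-206 has the longest 3' UTR of the 12, with 9202 bases behind a coding part of 555. Chst2-201, a sulfotransferase for N-acetylglucosamine, had 194 and 203 reads on 2 exons, of which the last held 7182 of 7328 bases.
Zfand5-205, a zinc finger protein tied to the proteasome, had 201 and 189 reads. Tspan5-201, a tetraspanin of the cell membrane, had 170 and 191. Pafah1b2-201, a catalytic subunit of a platelet-activating factor acetylhydrolase, had 182 and 177. The kinase co-chaperone Cdc37-201, the microtubule end-binding protein Mapre1-201 and the neuronal calcium sensor Caln1-203 each had between 147 and 170 reads in either library. Reads of genes with close copies or processed pseudogenes, such as Rab11b, Glo1, Serbp1 and Mapre1, are uncertain to the extent that the alignment could split them.

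**Figure D2:**
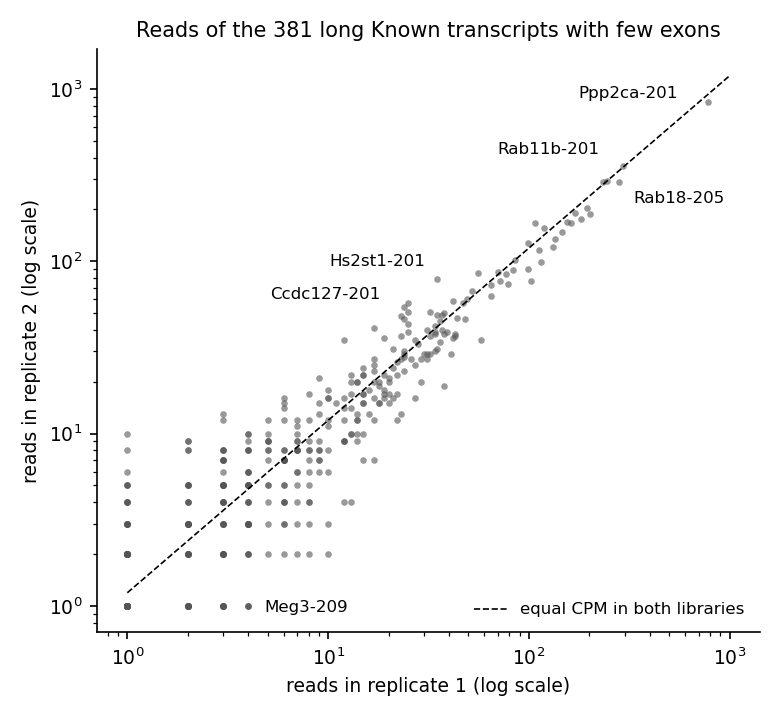
Reads of each of the 381 long Known transcripts with few exons in replicate 1 (x axis, log scale) and replicate 2 (y axis, log scale); each point is a transcript, and the dashed line marks equal CPM. Ppp2ca-201 stands highest with 778 and 836 reads, and points spread widely around the line below about 10 reads.

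The 5 longest annotated transcripts had between 5 and 81 reads over both libraries, beside a median of 14 over the 381. D10Wsu102e-201 spans 123179 bases in 4 exons and had 9 and 7 reads, and D1Ertd622e-201 spans 40378 bases in 3 exons and had 13 and 17. Hnrnpr-207, of a nuclear RNA-binding protein, has 21452 bases with 35 and 31 reads, and Serbp1-201, of an mRNA-binding protein, has 15474 bases with 43 and 38 reads. The noncoding Meg3-209, from an imprinted locus, has 14548 bases with 4 and 1 reads. A Known transcript in these files carries its annotated ends, so its length is that of the annotation and not of the reads. The reads themselves did not tell apart annotated transcripts that share all introns and differ only at their ends: of 290 such sets with a Known read, 0 had reads on more than 1 transcript. Of the long transcripts with few exons, 373 were alone on their introns and 8 had another annotated transcript on the same ones.

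Transcripts with 2 or 3 exons numbered 56, of which 25 had 2. After Chst2-201, the most read were Lypd1-202, a regulator of nicotinic receptors, with 135 reads in each library, and Akap5-202, a scaffold for protein kinase A at synapses, with 38 in each. Ccdc127-201 had 25 and 57 reads, and Mrpl17-202, of the mitochondrial ribosome, had 24 and 54. Both were lower in replicate 1, with log2 ratios of -0.92 and -0.90 and adjusted p of 0.197 and 0.216 by Fisher's exact test, and neither passed it.
Around the length limit, Tmem106b-201 at 6002 bases had 29 and 27 reads and Spred1-201 at 6016 bases had 85 and 102, while Gnb4-205 at 5997 bases had 89 and 82 and Tomm70a-201 at 5964 bases had 125 and 117.

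Over all Known transcripts with at least 10 reads in the libraries together, 148 of 10026, or 1.48%, differed between the libraries at an adjusted p under 0.05 (Fisher's exact test, Benjamini-Hochberg). Of the long transcripts with few exons, 240 could be tested and 0 were called. Their median log2 ratio of replicate 1 over replicate 2 was 0.08, against 0.03 over all transcripts tested. An unadjusted p under 0.05 was found for 26 of the 240 and for 1036 of the 10026. With DESeq2 size factors in an exact binomial test 1 was called: Hs2st1-201, a heparan sulfate 2-O-sulfotransferase, with 35 and 79 reads. Its log2 ratio was -0.91 and its adjusted p 0.0718 by Fisher's exact test with scaling by all mouse reads. These tests compare the reads of 2 libraries, not conditions.

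Over all genes, 357 had such a transcript, beside 412 with only a long Known transcript of over 12 exons and 9566 whose spliced Known transcripts were all shorter. The role lists were chosen with earlier results of these data known, and no test was made of their counts. The lists are incomplete and leave out genes named above. Rab18 is missing from the small GTPases, G3bp1, Hnrnpr and Serbp1 from the RNA-binding proteins, and Ppp2ca from the kinases and phosphatases. The counts are therefore of listed genes and do not rank the roles. The largest were among transcription factors and chromatin readers (9 of 46 genes listed), small GTPases and their regulators (7 of 50) and RNA-binding proteins (6 of 33). Of the genes in these lists, 43, 49 and 27 had a Known read. Ion channels, solute transporters, membrane receptors, and kinases and phosphatases each had 4 genes, of 39, 27, 46 and 44 listed. Adhesion proteins had 3 of 51, vesicle and secretory proteins 3 of 47 and ubiquitin ligases 2 of 49. Genes studied for long or alternative 3' UTRs had 4 of 21. In every list 0 transcripts were called between the libraries, but not all had enough reads for the test: 7 of 9 among RNA-binding proteins and among small GTPases, 5 of 10 among transcription factors, 3 of 4 each among channels, transporters, receptors, and kinases and phosphatases, 3 of 3 among ubiquitin ligases, 4 of 5 among genes studied for their 3' UTRs, and 1 each among adhesion (of 4) and vesicle proteins (of 3).
Among transcription factors, Nfib-202, a nuclear factor I protein of cortical development, had 32 and 29 reads, and Klf13-201 had 29 and 20. Among RNA-binding proteins, Tardbp-202, which encodes TDP-43, had 22 and 12 reads with a log2 ratio of 1.10 (0.10 to 2.10) that missed the threshold (adjusted p = 0.428, Fisher's exact test). The splicing regulator Qk had transcripts with different 3' UTRs: Qk-201 with 15 and 22 reads on 5252 bases of 3' UTR, and Qk-204 with 15 and 15 on 7014.
Among membrane proteins, Ntrk2-202 had 34 and 38 reads. It is 1 transcript of the gene for the receptor for brain-derived neurotrophic factor, with a coding part of 1431 bases. The GABA-A receptor subunit Gabrb1-201 had 27 and 35 reads on 13737 bases, and the glial glutamate transporter Slc1a2-202, itself 1 of the 6 astrocyte markers above, had 25 and 51.

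Reads that match no annotated transcript were put in classes by the authors' program, TALON. Incomplete splice match (ISM) models hold part of the introns of an annotated transcript or 1 exon of it; NIC models join known splice sites in a way not annotated; NNC models hold a splice site not annotated; genomic models belong to none of these and include single-exon models inside exons or introns. The 357 genes had 14935 and 17398 reads in replicates 1 and 2. Genomic models took 17.1% and 17.3% of them, ISM models 7.83% and 9.29%, NIC models 6.51% and 6.77% and NNC models 3.82% and 3.85%.
The genomic share averaged 17.2% ± 0.101 (SD, n = 2), against 11.99% ± 1.31 in 412 genes with a long Known transcript of over 12 exons and none with few, and 4.33% ± 0.564 in 9566 genes whose spliced Known transcripts were all shorter. In each library the order of these gene groups was the same and the Wilson intervals did not overlap. Known, ISM, NIC and NNC reads together are called spliced reads here and below, though they include single-exon ISM models. Of these reads in the 357 genes, ISM models took 9.45% and 11.2%. The shares were 31.2% and 33.0% in long genes with many exons and 9.81% and 10.4% in the genes with shorter transcripts. The ISM share of the 357 genes was below that of long genes with many exons in both libraries. It differed from that of the genes with shorter transcripts by less than the spread between replicates. The direction changed, with the 357 genes lower in replicate 1 and higher in replicate 2. In replicate 2 the Wilson intervals did not overlap (10.7 to 11.8% against 10.3 to 10.5%).

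Of the genomic reads in the 357 genes, 92.6% and 90.5% were single-exon models wholly inside the last exon, against 83.4% and 82.1% in long genes with many exons and 75.8% and 78.2% in the other genes. By gene, the glutamate transporter Slc1a2 led the coding genes, with 137 and 177 genomic reads beside 40 and 70 Known ones. The noncoding Meg3 had 191 and 151 genomic reads beside 23 and 16 Known ones, and Miat, another noncoding RNA, had 77 and 95 beside 4 and 3. Tmod2, a tropomodulin that caps actin filaments, had 54 and 66 beside 12 and 10.

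The 3' ends of unannotated models lay at different places by class. Of the ISM, NIC and NNC reads of the 357 genes, 10.2% and 15.5% in replicates 1 and 2 were single-exon models inside the last exon. Among ISM, NIC and NNC reads that ended in the last exon, 516 of 2329 in replicate 1 and 724 of 3023 in replicate 2 ended within 200 bases of the annotated end of the longest chosen transcript, a mean of 23.1% ± 1.27 (SD, n = 2). The means were 51.2% ± 0.765 in long genes with many exons and 80.7% ± 0.366 in genes with shorter transcripts. Among genomic reads the share in the 357 genes was 62.4% and 64.9%, against 82.7% and 76.0%, and 87.1% and 84.8%. A longer last exon offers more room for other ends, and the comparison was not adjusted for its length.
Along the last exon, 14.8% and 13.9% of the ISM, NIC and NNC reads ended in the first of 10 equal parts, 17.5% and 17.2% in the next, 1.98% and 1.92% in part 8 and 23.1% and 24.5% in the last. The ends therefore gathered near the start and at the annotated end of the exon. Genomic reads ended in the last part in 64.7% and 68.5% and in the first in 1.06% and 1.02%.

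**Figure D3:**
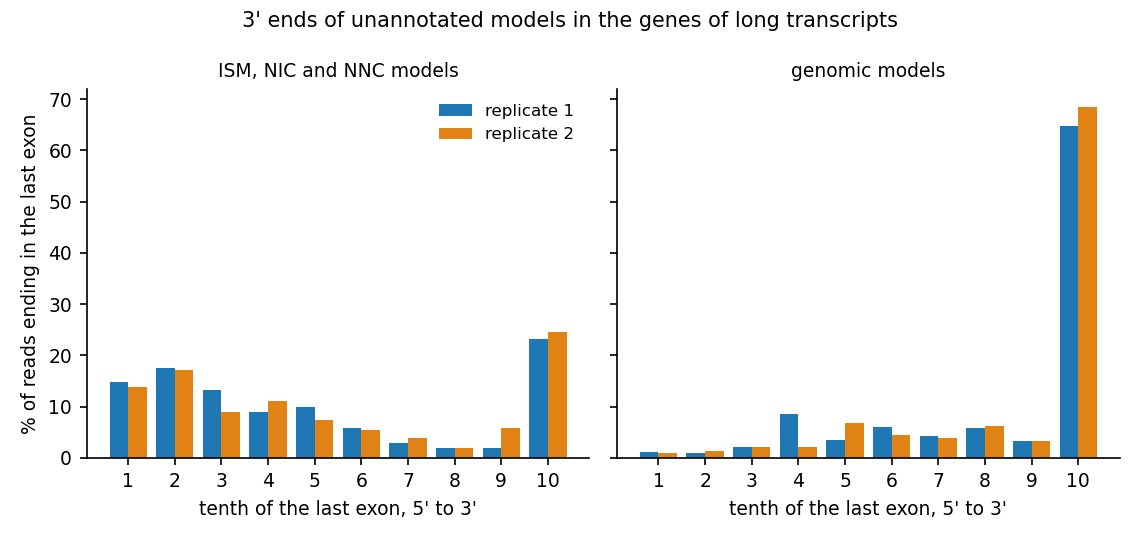
Share of unannotated reads (y axis, % of those ending in the last exon) whose model ends in each of 10 equal parts of the last exon (x axis, 5' to 3'), for ISM, NIC and NNC models (left) and genomic models (right), bars for replicate 1 and replicate 2. Reads of the left panel end early in the exon or in the last part (23.1% and 24.5%), and those of the right panel mostly in the last part (64.7% and 68.5%).

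Split by exon number in place of class, a split chosen after the data were seen, unannotated reads with introns ended within 200 bases of the annotated end in 18.3% and 21.1%, and single-exon reads in 61.8% and 61.2%. Of the 114 genes with at least 10 such reads with introns over both libraries, 65 had 0 at the annotated end and 25 had more than 50% there. Of the 143 genes with at least 10 single-exon reads, 17 had 0 there and 97 had more than 50%. Over the 349 genes with any unannotated read ending in the last exon, 268 had a read of either kind at the annotated end.

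The unannotated reads with introns of the 12 transcripts with most reads numbered 425 in the last exon, of which 9 ended within 200 bases of the annotated end, all in Rab18. Of the 257 single-exon reads of these genes, 75 ended there, in 7 of the 12, and 54 of these were in Caln1. Without Caln1 it was 21 of 201.
Ppp2ca had 18 and 32 such reads with introns in replicates 1 and 2. They ended at the places shown above, 759 bases past the stop codon with 4 and 26 reads and 1466 bases past it with 14 and 6, while the annotated 3' UTR has 5804 bases. Replicate 1 had more reads on models with the farther end and replicate 2 on models with the nearer end. This difference was not tested, and a model has 1 end for all its reads.
Tspan5 had 23 and 31 reads with introns at 1982 bases past the stop codon, where another transcript is annotated to end, and 20 and 21 single-exon reads at the same place. None ended at the annotated end of Tspan5-201, at 5461 bases. G3bp1 had 9 and 34 reads with introns ending at 487 bases and 10 and 9 at 843 bases, against an annotated 5170. Pafah1b2 had 8 and 16 at 3376 bases, against 5829.
In Caln1 the kinds of read parted. All 25 and 22 reads with introns ended 764 bases past the stop codon, before 18 A in 20 bases. At the annotated end, 8002 bases past the stop codon, 23 and 31 single-exon reads ended. Neither of these Caln1 ends had AATAAA or ATTAAA in the last 30 bases. The kinds of read also parted in Slc1a2, with 127 and 170 single-exon reads at its annotated end, 9250 bases past the stop codon. Its reads with introns included 11 and 6 at 862 bases. Ntrk2 had 50 and 40 reads with introns at 387 bases past the stop codon, and 45 single-exon reads over both libraries at the annotated end, at 4967. A read that runs from the exon before to the annotated end spans the whole last exon, of 8130 bases in Caln1 and 9322 in Slc1a2. In the 357 genes, models of 6000 bases or more held 3.76% and 4.21% of ISM reads in replicates 1 and 2. They held 8.85% and 14.9% of NIC reads and 8.2% and 7.0% of NNC reads. The part of read length in where reads with introns ended was not tested.

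**Figure D4:**
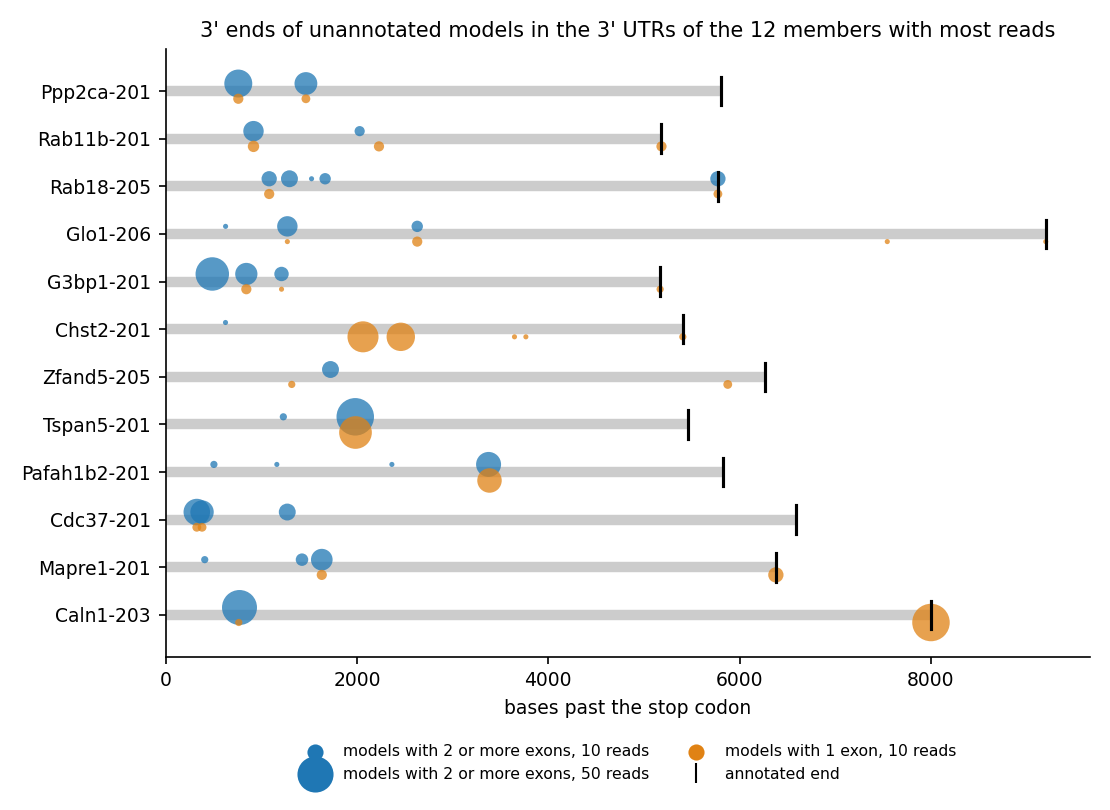
3' ends of unannotated models along the annotated 3' UTRs (grey, x axis in bases past the stop codon) of the 12 long transcripts with most reads (y axis); circle area is proportional to reads over both libraries, blue for models with 2 or more exons and orange for models with 1 exon, and black ticks are annotated ends. Most blue circles lie well before the annotated end, and only Rab18-205 has them at its tick, while Caln1-203 has a large orange circle there.

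Hexamers were counted at these ends in the transcript strand, as AATAAA or ATTAAA wholly within the 40 bases before the end, with ends within 25 bases merged. The hexamers overlap in letters, and an end with either was counted once. Of 513 ends of reads with introns more than 200 bases before the annotated end, 240 (46.8%) had a hexamer, and of the 193 seen in both libraries 104 (53.9%) did. Of 264 ends within 200 bases of the annotated end, 242 (91.7%) had it, and of the annotated ends of the 357 longest transcripts of each gene, 305 (85.4%). Only 5 of the 264 ends had 20 transcript bases after them, so the others lay at the annotated end or less than 20 bases before it. Both shares are thus largely of the same positions. Over all 2323391 positions of these last exons more than 200 bases before the end, the share was 4.07%. At least 12 A in the next 20 bases were found at 76 of the 513 ends (14.8%), against 1.56% of all positions. Of the 651 inner ends in all, 183 lay at an annotated end of another transcript and 468 did not. A hexamer was found at 79 of the 183 (43.2%) and 214 of the 468 (45.7%). At least 12 A in the next 20 bases were found at 19.1% and 15.6% of them.

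In a few genes the class given to single-exon reads differed between the libraries, while most genes tested were not called. The tests took all ISM or all genomic reads of a gene, whatever their exon number. At an adjusted p under 0.05 the ISM share of spliced reads differed between the libraries in 115 of 5788 genes tested (1.99%; Fisher's exact test), and in 4 of 138 of the genes with long transcripts of few exons. The genomic share differed in 249 of 6178 (4.03%), and in 9 of 175. Taking ISM and genomic reads together, an alternative chosen after these calls were seen, 26 of 6178 genes were called (0.421%) and 0 of the 175, with 7 of the 175 at an unadjusted p under 0.05.
In Dnajc5, the cysteine string protein of synaptic vesicles, genomic reads were 60 of 209 in replicate 1 and 3 of 228 in replicate 2, while ISM reads were 8 and 76. Together they were 32.5% and 34.6% of the reads. In replicate 1, 55 of the genomic reads were on a model with 1 exon of 2234 bases that starts 53 bases into the last exon. In replicate 2, 69 of the ISM reads were on a model with 1 exon of 3606 bases that starts 2 bases into it. In Tspan5, a single-exon model of 2019 bases was genomic in replicate 1, with 20 reads, and a model of 2048 bases with the same end was ISM in replicate 2, with 21.
Mmp17, a membrane-type metalloproteinase, went the other way, with 25 reads on a single-exon ISM model in replicate 1 and 22 on a genomic one in replicate 2, with ends 1 base apart. In Csnk2a2, a catalytic subunit of casein kinase 2, a model of 445 bases at the same place was ISM in replicate 1 with 16 reads and genomic in replicate 2 with 23. Kcnh1, Traf3 and Castor2 had more genomic reads in replicate 1, and Adarb1 and Tmem132b in replicate 2, with the opposite in ISM reads. The Adarb1 models did not lie at the same place. The main single-exon ISM model of replicate 1, with 16 reads, had 4235 bases and covered the last exon. The main genomic model of replicate 2, with 27 reads, had 379 bases and started 4233 bases into that exon, so nearly all of it lay past the annotated end. Meg3 had a genomic share of 54.3% in replicate 1 and 33.9% in replicate 2 and, together with ISM, 74.2% and 71.5%.

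**Figure D5:**
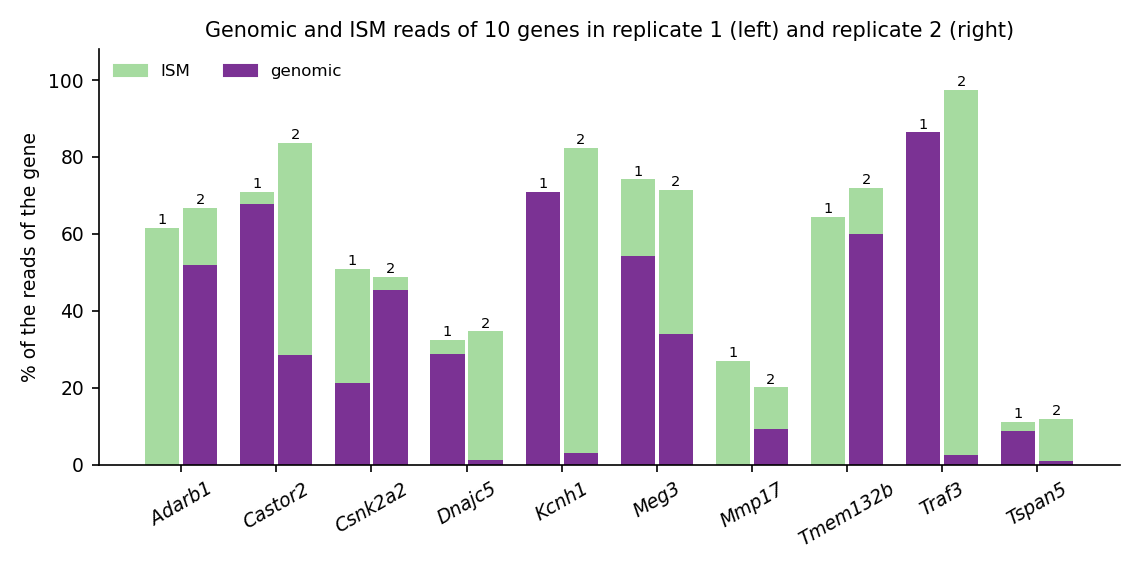
Genomic (purple) and ISM (green) reads as % of all reads of the gene (y axis) for the 10 genes called in either class (x axis), with replicate 1 as the left bar and replicate 2 as the right. The colours change places between the libraries, while the summed height differs less, as in Dnajc5 with 32.5% and 34.6%.

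A model has 1 start and 1 end for all its reads, and these too differed between the libraries. Single-exon models that lay in the last exon and ended at the annotated end were found in 211 genes in replicate 1 and 214 in replicate 2, with exactly 1 model per gene and library, holding 1598 and 1945 reads. In 175 genes with such a model in both, its lengths were within 25 bases of each other in 31 and more than 1.5 times apart in 77. For Slc1a2 the model had 4828 bases in replicate 1 and 5975 in replicate 2, and for Caln1 3576 and 6777. In Dnajc5 the single-exon model ended 2183 bases past the stop codon in replicate 1 and 3504 in replicate 2. The single-exon reads are thus placed by their model, and the start and end of each read were not analysed here.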

How the data were processed

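Reads of 2 long-read libraries were analysed as the whole-number counts per transcript model that the authors deposited, with the models' exons, per the file headers; the genome build was mm10, per the labels. The members and gene lists were chosen with earlier results of these data known. Reads on spike-in sequences were left out of totals, and CPM is reads per 1000000 mouse reads (775048 and 924222). Known transcripts were compared with GENCODE M21 for coding parts, 3' UTRs and sequence. Tests were 2-sided Fisher's exact tests, per Known transcript with at least 10 reads over both libraries and per gene with at least 20 reads in each, with Benjamini-Hochberg adjustment over all tested. Log2 ratios are replicate 1 over replicate 2 after adding 0.5 reads. Scaling by TMM (edgeR 4.0.16) and by DESeq2 1.42.0 size factors, other count minimums, length limits and end distances were alternatives. Python 3.11.15 and scipy 1.17.1 were used, and the tests were checked on simulated data. Named were the 12 transcripts with most reads, the 5 longest, the 5 most read with 2 or 3 exons, those past the test, up to 4 nearest each side of the length limit, the 5 genes with most ISM and most genomic reads, and 3 per role list, of which some are not reported here; Hs2st1 and the genes called in the class tests were chosen after their values were seen. The aligner is not given in the sources used here. At 10 reads over both libraries the log2 interval is wide, as for 1500004A13Rik-202 (-0.85, from -2.68 to 0.98).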

Additional observations from a re-analysis of the deposited data

Results flagged for a closer look

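Reads outside the comparisons above lay over the same last exons on the other strand. Models classed as antisense that overlap the last exons of the 381 transcripts held 3689 reads in replicate 1 and 3915 in replicate 2, summed over 357 genes. A count of 0 allows up to 3 reads, which is a limit for a single count and not for such sums. There were no control samples to set them against. They were found in both libraries in 97 of 357 genes, with more than 3 reads in each in 46. The neuronal adhesion gene Nlgn3 had 348 and 358 of them, the transcription factor Nfia 174 and 215, and Tacc1 196 and 2. Same-strand intergenic models within 5000 bases past the annotated ends held 17 and 10 reads, also summed over 357 genes. Only 2 of the genes had such reads in both libraries, and 1 of them, Zkscan1 with 4 and 5, had more than 3 in each. How the strand of single-exon reads was set is not given in the sources used here, and the cause was not tested.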

How the results depend on the processing

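The call count between libraries was 0 of 240 with scaling by all mouse reads, and also 0 with TMM factors, the Known total, no count minimum or 20 reads; with DESeq2 size factors, which moved the median log2 ratio of all transcripts by -0.10, it was 1, Hs2st1-201. Of the transcripts named by rule, 54 could be tested (44 with 20 reads) and changed no call. The share of Known reads, 1.62%, was 2.96% from 5000 bases, 0.875% from 7000 and 1.15% with 2 to 8 exons, by construction of the limits. The genomic calls were 9, and 5 with at least 50 reads; ISM and genomic reads summed left 0 in place of 4 and 9. Leaving out models with 1 read gave an ISM share of 7.73% (10.3% with all) and a genomic share of 16.6% (17.2%), which was 18.55% without the 5 genes with most reads. Genomic ends at the annotated end were 66.2% with 500 bases in place of 200 (63.6%) and 61.5% for all single-exon models; the spliced share of 23.1% was 19.7% for models with 2 or more exons. Single libraries gave 1.58 to 1.65%, 9.45 to 11.2%, 17.1 to 17.3%, 22.2 to 24.0% and 62.4 to 64.9% for these shares. No paired analysis was possible because there is 1 group. Depth limits the test: 141 of 381 had fewer than 10 reads and were not tested.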

Other observations

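Further genes, chosen after their values were seen, had unannotated reads with introns ending far before the annotated end. Syt16, an atypical synaptotagmin, had 107 and 143 such reads in the last exon in replicates 1 and 2, of which 245 in all ended 960 bases past the stop codon and 5356 before the annotated end. Tpd52 had 90 and 115, and Zfp651 37 and 45, and neither had a read with introns at the annotated end. Irgq went the other way, with all 23 and 28 at its annotated end.

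Unannotated models of 6000 bases or more were more common in the 357 genes than over all mouse reads. They held 8.85% and 14.9% of the NIC reads of these genes, against 2.90% and 2.68% over all, and 3.76% and 4.21% of the ISM reads, against 1.05% and 0.979%. The genes were chosen for long annotated transcripts, so no test was made.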
